A study of Mus musculus with 32 samples.

Results

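Expression of 10 genes that make and break down prostaglandins and leukotrienes was measured in whole mesothelioma tumors grown in the pleural cavity or under the skin of mice. The genes were taken by symbol (Pla2g4a, Ptgs1, Ptgs2, Ptges, Ptgis, Ptgds, Hpgd, Alox5, Alox5ap and Alox15) from a table of 39676 genes, and each symbol had its own entry there. The tumors came from 32 mice in 4 groups of 8, in which the AB1 line was grown in BALB/c mice and the AE17 line in C57BL/6 mice, each by intrapleural (IPL) or subcutaneous (SC) inoculation. AB1 and AE17 are murine mesothelioma lines, and 500000 AB1 cells or 1000000 AE17 cells were given to female mice aged between 8 and 10 weeks. All mice were untreated, and polyA RNA was prepared from tumors taken on day 10. The SC tumors grew on the right flank. The labels and the methods describe a harvest that included adjoining tissue, and per the methods lung and other adjoining tissue was later cleared from the tumors. Cell line, mouse strain and cell dose differed together between the models and cannot be told apart.

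Prostaglandins and leukotrienes are short-lived lipid signals made from arachidonic acid. A cytosolic phospholipase frees the fatty acid from membranes, cyclooxygenases turn it into the precursor of all prostaglandins, and terminal synthases then make prostaglandin E2, prostacyclin or prostaglandin D2. Lipoxygenases send the same fatty acid to leukotrienes and other products, mainly in myeloid cells, and prostaglandin E2 made in tumors is best known for dampening immune responses. In whole tumor RNA, fewer cells of a type and less RNA per cell cannot be told apart.

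Promoter sequences are shown for Pla2g4a and Ptgs2, which are neighbors on chromosome 1 and varied together among AB1 tumors but only weakly among AE17 tumors. They are also shown for Alox5 and Ptges, which were both lower in AE17 IPL tumors. Each runs 5′ to 3′ from 250 bases before to 30 bases after a RefSeq start site on GRCm38.p6, and RefSeq gives 2 such windows for Pla2g4a, of which the one nearer the annotated gene start is shown. Capitals mark matches on either strand to a TATA box (TATAAA), a GC box (GGGCGG), an E-box (CACGTG), a CRE core (TGACG) or a CCAAT box (CCAAT). The windows are chr1:150099781-150100060 (plus strand, Ptgs2), chr1:149961261-149961540 (minus strand, Pla2g4a), chr2:30903268-30903547 (minus strand, Ptges) and chr6:116461149-116461428 (minus strand, Alox5). The Ptges start site lies 26.6 kb inside the gene as annotated in GENCODE, whose outermost start is farther upstream, while the other 3 coincide with the annotated gene start.
Ptgs2: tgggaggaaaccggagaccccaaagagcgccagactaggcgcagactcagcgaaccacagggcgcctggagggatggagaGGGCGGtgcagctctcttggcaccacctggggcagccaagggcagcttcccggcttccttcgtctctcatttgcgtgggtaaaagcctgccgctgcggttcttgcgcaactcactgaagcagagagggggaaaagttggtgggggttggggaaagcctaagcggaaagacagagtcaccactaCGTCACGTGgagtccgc
Pla2g4a: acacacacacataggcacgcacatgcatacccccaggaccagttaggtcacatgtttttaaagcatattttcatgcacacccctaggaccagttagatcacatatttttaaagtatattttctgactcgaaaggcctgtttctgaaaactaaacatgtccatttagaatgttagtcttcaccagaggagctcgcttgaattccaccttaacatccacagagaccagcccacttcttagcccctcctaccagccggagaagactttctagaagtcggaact
Ptges: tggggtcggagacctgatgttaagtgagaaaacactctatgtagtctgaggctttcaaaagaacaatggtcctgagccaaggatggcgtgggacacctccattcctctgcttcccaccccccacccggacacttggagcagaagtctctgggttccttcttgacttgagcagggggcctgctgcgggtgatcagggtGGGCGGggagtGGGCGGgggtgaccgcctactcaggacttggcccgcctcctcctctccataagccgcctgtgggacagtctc
Alox5: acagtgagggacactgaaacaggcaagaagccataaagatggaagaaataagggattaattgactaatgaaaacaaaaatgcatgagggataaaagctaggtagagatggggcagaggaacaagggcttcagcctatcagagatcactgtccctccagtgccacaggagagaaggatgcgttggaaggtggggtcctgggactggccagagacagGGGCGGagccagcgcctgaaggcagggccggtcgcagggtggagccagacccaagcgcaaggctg

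The Ptgs2 window held 1 GC box that began 170 bases before the start site, and a CRE core (read on the opposite strand) that began at base 14 of the transcript and shared 2 of its bases with an E-box that began at base 17. Ptges held 2 GC boxes, Alox5 held 1, and Pla2g4a held none of the 5 motifs. Of 32851 promoter windows of this length, 34.7% held a GC box, 19.9% a CRE core and 6.79% an E-box, while 13.1% held a TATA box and 36.1% a CCAAT box. The promoter table has no entry for Alox15, Alox5ap or Ptgis.

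Total counts ranged from 15432258 to 20649645 per tumor. Levels are given as CPM (counts scaled by library size with TMM factors from edgeR), with SD over 8 tumors. A level under 3 counts, or 0.139 to 0.190 CPM on this scale depending on the tumor, was treated as not detectable. AB1 IPL replicates 2 and 4 stood apart from their group, with a median Spearman correlation of 0.9597 and 0.9584 with the other tumors of the group across genes, against at least 0.9727 for the other 6. Sequencing lanes were unevenly filled. Lane 3 carried the 8 AB1 IPL and 2 AB1 SC tumors, lane 2 carried 6 AB1 SC and 5 AE17 IPL tumors, and lane 1 carried 3 AE17 IPL and the 8 AE17 SC tumors. Mesothelial identity genes were sparse, since the summed level of the 5 measured markers (Upk3b, Wt1, Krt19, Lrrn4 and Gpm6a) was at most 3.32 CPM in AB1 SC and 10.9 CPM in AE17 SC tumors. In AB1 IPL tumors it had a median of 1.37 CPM but reached 86.6 CPM in replicate 2, and in AE17 IPL tumors it ranged from 1.78 to 25.4 CPM.

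Per kilobase of exon, Alox5ap, which presents arachidonic acid to 5-lipoxygenase, had the highest level of the 10 genes in every group, with a mean over 32 tumors of 46.1 CPM per kb. Ptges, the inducible prostaglandin E2 synthase, came second in every group, with a mean of 17.5 CPM per kb. Ptgs1, the constitutive cyclooxygenase, followed at 8.02 CPM per kb, Pla2g4a at 6.39 and Ptgis, the prostacyclin synthase, at 4.34. Ptgs2, the inducible cyclooxygenase, had 4.18 CPM per kb, below Ptgs1 in all 4 group means. Alox5 (2.40), Alox15 (1.73) and Hpgd (1.06 CPM per kb) were low, and Ptgds, a prostaglandin D2 synthase, was last at 0.0423 CPM per kb. Ptgds had between 0 and 5 counts in any tumor and 0 counts in 14 of 32, at or near the detection limit throughout.

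**Figure D1:**
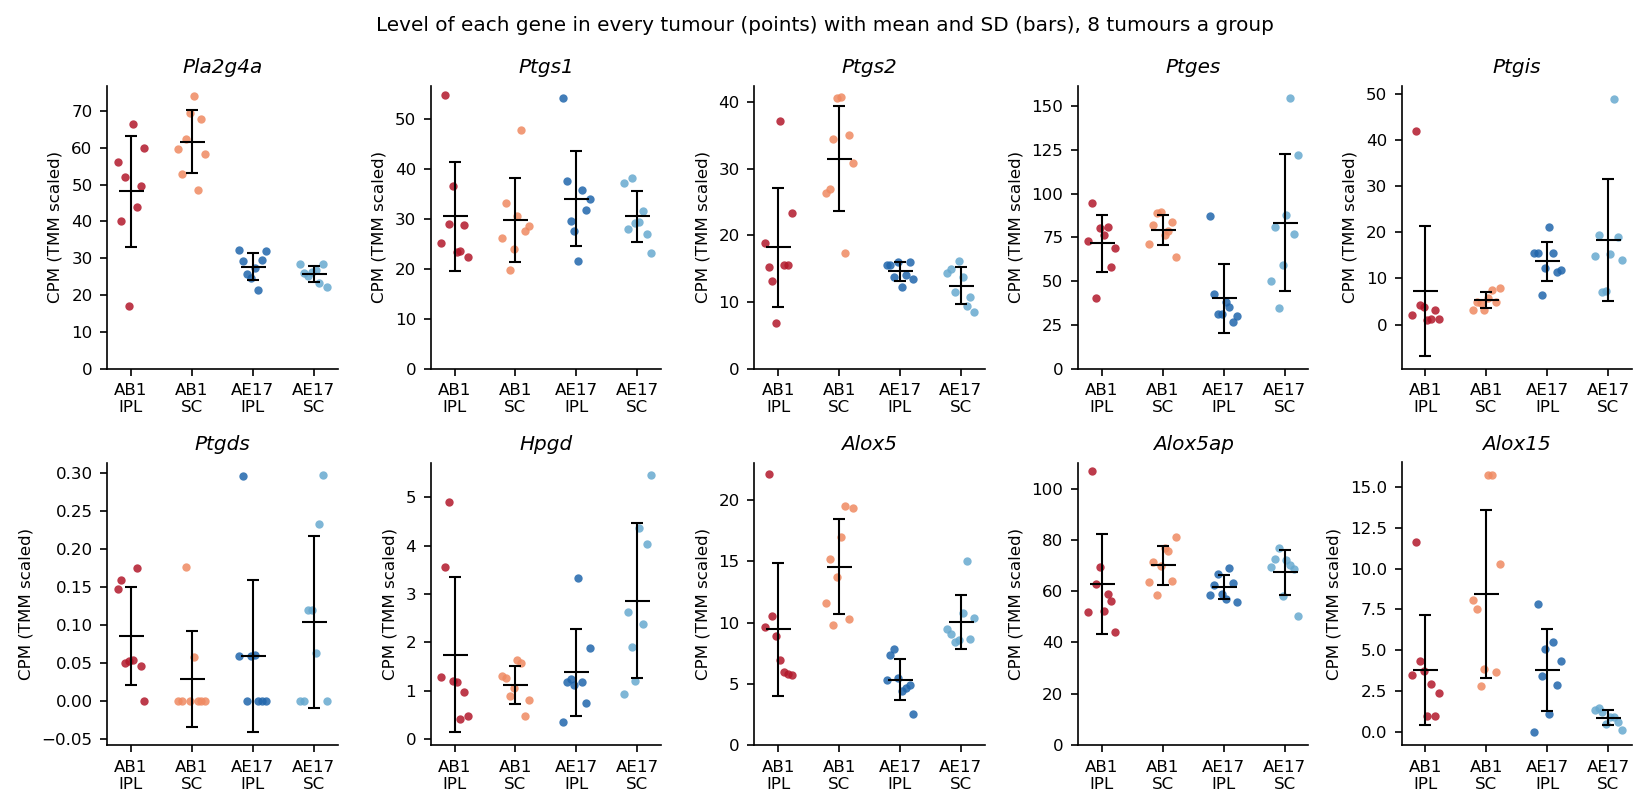
TMM-scaled CPM of the 10 genes in every tumor (points), with the mean and SD of the 8 tumors of each group (black bars) on a linear axis that differs between panels. The IPL and SC points of AE17 do not overlap for Alox5, and 1 AB1 IPL tumor stands far above its group for Ptgis, at 42.0 CPM. SD bars that cross 0 belong to Ptgis and Ptgds.

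For each model the sites were compared with the quasi-likelihood test of edgeR. A gene was called where its p, adjusted over all genes tested (Benjamini-Hochberg), was under 0.05. In AB1, 1 of the 9 genes that passed the filter was called (Ptgs2, lower in IPL tumors), where 23% of all 14645 genes tested were called. In AE17, 3 of 9 were called (Alox5 and Ptges lower, Alox15 higher in IPL tumors), where 5.73% of all 14668 genes were called. The median log2 fold change of the 9 genes was -0.17 in AB1 and -0.13 in AE17, against 0.00 over all genes tested in both. Ptgds passed the filter in neither model, and its log2 CPM had an exact permutation p of 0.0667 between AB1 sites and 0.361 between AE17 sites.

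Pla2g4a, the cytosolic phospholipase A2 that frees arachidonic acid, lies on chromosome 1 (149829618 to 149961290, GRCm38, minus strand). AB1 IPL tumors had 17.1 to 66.6 CPM (median 50.9) and AB1 SC tumors 48.5 to 74.0 CPM (median 61.0). Both AE17 groups lay below, from 21.4 to 32.2 CPM in IPL tumors (median 28.3) and from 22.2 to 28.5 CPM in SC tumors (median 26.1). The sites overlapped in each model, and neither site difference passed the threshold (log2 fold change -0.37 ± 0.19 SE, adjusted p = 0.168 in AB1, and 0.11 ± 0.08, adjusted p = 0.434 in AE17). The 8 AB1 SC tumors all lay above the 8 AE17 SC tumors, and 7 of 8 AB1 IPL tumors lay above every AE17 IPL tumor.

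Of the cyclooxygenases, Ptgs1 (chromosome 2, 36230426 to 36252272, plus strand) did not differ detectably between groups. Its group means lay between 29.7 ± 8.38 and 34.0 ± 9.54 CPM, and adjusted p values for neighbors in this order were 0.462 or more, and that for the farthest pair (AB1 SC against AE17 IPL tumors) was 0.354. An antisense gene, Gm43621, shares 148 exonic bases with Ptgs1 and had 2 to 15 counts per tumor, against at least 334 for Ptgs1. Ptgs2 (chromosome 1, 150100031 to 150108227, plus strand, 138.7 kb from Pla2g4a) was the cyclooxygenase that differed. AB1 IPL tumors had 6.78 to 37.1 CPM (median 15.5) and AB1 SC tumors 17.3 to 40.7 CPM (median 32.6). The ranges overlapped, with 5 of 8 IPL tumors below every SC tumor and 7 of 8 below the SC median. Ptgs2 was 1.75-fold lower in AB1 IPL tumors (log2 fold change -0.81 ± 0.25, adjusted p = 0.0276). The call was lost without AB1 IPL replicate 2 or 3 or AB1 SC replicate 4 or 5 (adjusted p up to 0.0561), and the difference was -0.60 on the log2 scale among the lane 3 tumors alone (adjusted p = 0.646, with 2 SC tumors). In AE17 tumors Ptgs2 ranged from 12.3 to 16 CPM in IPL (median 14.8) and from 8.42 to 16.1 CPM in SC tumors (median 12.6), a difference of 0.23 ± 0.12 on the log2 scale that was not called (adjusted p = 0.251).

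Markers of other cells moved with site in AB1. Leukocyte markers fell in 4 of 5 cases (summed level 420 to 812 CPM in IPL and 794 to 1350 CPM in SC tumors), T cell markers in 5 of 5 (12.8 to 65.6 against 68.7 to 126 CPM), mast cell markers in 4 of 4 (14.8 to 160 against 192 to 438 CPM) and macrophage markers in 3 of 7 (1590 to 3150 against 2220 to 3330 CPM). Skeletal muscle markers rose in 6 of 7 cases (104 to 4050 CPM in IPL and 54.8 to 427 CPM in SC tumors), and fibroblast markers in 3 of 4 (3400 to 9520 against 3010 to 4140 CPM). Neutrophil markers moved both ways in AB1 (2 of 5 higher and 1 lower), 3 of 3 B cell and 2 of 4 adipocyte markers rose, and both eosinophil markers that could be tested (Ccr3 and Siglecf, of 5) fell. The summed level of the 5 eosinophil markers was 1.49 to 60.5 CPM in IPL (median 7.37) and 3.00 to 12.9 CPM in SC tumors (median 6.28), and it was highest in IPL replicates 3 and 4 (60.5 and 52.2 CPM). Endothelial markers rose in 2 of 6 cases (Tek and Cdh5, summed level 118 to 195 against 127 to 162 CPM) and 1 of 2 keratinocyte markers rose, while of 2 cardiac muscle markers Tnnt2 rose and Tnni3 fell (2.60 to 48 against 4.31 to 8.52 CPM). No serous cavity macrophage, platelet, mesothelial or lung epithelium marker was called (0 of 4, 0 of 2, 0 of 1 and 0 of 1 tested by edgeR). In AB1 neither site had a marker of these lists at 0 in all of its tumors. Their part in the lower Ptgs2 of AB1 IPL tumors was not tested.

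Of the terminal synthases, Ptges (chromosome 2, 30889471 to 30929863, minus strand) differed between sites in AE17. AE17 IPL tumors had 26.9 to 87.5 CPM (median 33.1) and AE17 SC tumors 34.5 to 155 CPM (median 79.1). Of the 8 IPL tumors, 7 lay below the SC median and 4 below every SC tumor, while replicate 1, at 87.5 CPM, was more than 2 times as high as the next (42.7 CPM). Ptges was 2.07-fold lower in AE17 IPL tumors (log2 fold change -1.05 ± 0.30, adjusted p = 0.0477), and -1.31 without IPL replicate 1 (adjusted p = 0.0174). The call was near the threshold and held in 4 of 16 fits that each left out 1 tumor, being lost without any one of IPL replicates 2 to 8 or SC replicates 2, 5, 6, 7 and 8 (adjusted p up to 0.102). Among the lane 1 tumors alone (3 IPL and 8 SC) the difference was -1.45 (adjusted p = 0.219). In AB1 tumors Ptges did not differ detectably between sites (71.6 ± 16.3 CPM in IPL and 79.4 ± 8.77 CPM in SC tumors, adjusted p = 0.388).

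Ptgis (chromosome 2, 167191805 to 167240604, minus strand) depended on a single tumor in AB1. It ranged from 1.08 to 4.17 CPM in 7 of the 8 AB1 IPL tumors but was at 42.0 CPM in replicate 2, while AB1 SC tumors ranged from 3.20 to 7.95 CPM (median 4.90). The fitted log2 fold change of 0.47 ± 0.68 (adjusted p = 0.656) became -1.14 without that tumor (adjusted p = 0.0155), with 5 of the other 7 IPL tumors below every SC tumor. DESeq2, whose default settings replace outlying counts, gave -1.04 (adjusted p = 0.0054). In AE17 tumors Ptgis had 13.7 ± 4.29 CPM in IPL and 18.3 ± 13.3 CPM in SC tumors (adjusted p = 0.477). The antisense gene 1110018N20Rik shares 156 exonic bases with Ptgis and had at most 8 counts in a tumor.

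AB1 IPL replicate 2 also had the highest level of its group for Ptges (94.5 CPM), Alox5 (22.1 CPM), Alox5ap (107 CPM), Alox15 (11.6 CPM) and Ptgs1 (54.8 CPM). Its summed mesothelial (86.6 CPM), macrophage (3150 CPM), serous cavity macrophage (64.7 CPM), leukocyte (812 CPM), mast cell (160 CPM), B cell (74.5 CPM) and fibroblast markers (9520 CPM) were the highest of the group, and its summed skeletal (104 CPM) and cardiac muscle markers (2.60 CPM) the lowest. The part of these cells in its levels of the 5 genes was not tested. The uroplakin gene Upk3b, a mesothelial marker, was at 31.4 CPM there and at most 0.465 CPM in the other 7 AB1 IPL tumors. Without this tumor 4 of the 9 genes were called in AB1, where 23.6% of all genes were called. All 4 were lower in IPL tumors: Ptgis, Alox5 (log2 fold change -0.93, adjusted p = 0.00207), Alox15 (-1.64, adjusted p = 0.00928) and Alox5ap (-0.31, adjusted p = 0.0254). Ptgs2 was then at -0.76 (adjusted p = 0.0529). The same 4 genes were called when AB1 IPL replicates 2 and 4 were both left out (25.4% of all genes called), a choice made after seeing the data.

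Hpgd, which encodes the dehydrogenase that inactivates prostaglandins (chromosome 8, 56294585 to 56321043, plus strand), was low in all groups, with 6 to 96 counts per tumor. AE17 IPL tumors had 0.356 to 3.32 CPM (median 1.18) and AE17 SC tumors 0.931 to 5.45 CPM (median 2.50). Of these IPL tumors 7 of 8 lay below the SC median, but the log2 fold change of -1.04 ± 0.41 was not called (adjusted p = 0.123). It was called without IPL replicate 5 (-1.38, adjusted p = 0.0376), the tumor with 3.32 CPM. That tumor was the least like its group (median Spearman correlation 0.9751) and had its highest summed B cell markers (159 CPM). In AB1 tumors Hpgd had 1.75 ± 1.60 CPM in IPL and 1.13 ± 0.393 CPM in SC tumors (adjusted p = 0.340).

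Alox5, the 5-lipoxygenase that starts leukotriene synthesis (chromosome 6, 116410077 to 116461178, minus strand), had the clearest site difference of the 10 genes. AE17 IPL tumors had 2.56 to 7.85 CPM (median 5.11) and AE17 SC tumors 8.44 to 15 CPM (median 9.28). The groups did not overlap. Alox5 was 1.89-fold lower in AE17 IPL tumors (log2 fold change -0.91 ± 0.19, adjusted p = 0.0153), and the call held in all 16 fits that left out 1 tumor (adjusted p between 0.0107 and 0.0351). Among the lane 1 tumors alone the difference was -1.32 (adjusted p = 0.0749). In AB1 tumors Alox5 ranged from 5.74 to 22.1 CPM in IPL (median 7.93) and from 9.83 to 19.5 CPM in SC tumors (median 14.5). Of the AB1 IPL tumors, 6 lay below every SC tumor and 1 (replicate 2) above all of them, and the log2 fold change of -0.64 ± 0.26 was not called (adjusted p = 0.0903). The site differences of the models did not differ detectably for Alox5 (interaction 0.29 ± 0.33, adjusted p = 0.585).

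Its partner Alox5ap (chromosome 5, 149264767 to 149288153, plus strand) varied little, with group means between 61.5 ± 4.67 and 70.1 ± 7.68 CPM. All 8 AE17 IPL tumors lay below the AE17 SC median, but the difference was small (log2 fold change -0.13 ± 0.08, adjusted p = 0.325). In AB1 it was -0.17 ± 0.14 (adjusted p = 0.410). The antisense gene Gm19719 shares 189 exonic bases with Alox5ap and had 9 to 38 counts per tumor.

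Alox15, which makes products of the 12- and 15-lipoxygenase type and is known from resident macrophages of body cavities (chromosome 11, 70344152 to 70352031, minus strand), had site differences of opposite sign in the models, of which the one in AE17 was called. AE17 IPL tumors had 0 to 7.83 CPM (median 3.92) and AE17 SC tumors 0.121 to 1.46 CPM (median 0.940). Of the IPL tumors 6 of 8 lay above every SC tumor, 1 lay within their range, and replicate 1 had 0 counts, which allows up to 0.178 CPM. Alox15 was 4.22-fold higher in AE17 IPL tumors (log2 fold change 2.08 ± 0.58, adjusted p = 0.0470), and 2.27 on the log2 scale without replicate 1 (adjusted p = 0.0119). The call held in 4 of 16 fits that each left out 1 tumor and was lost without IPL replicate 2, 3, 4, 6, 7 or 8 or SC replicate 2, 4, 5, 6, 7 or 8 (adjusted p up to 0.0900), and among the lane 1 tumors alone the difference was 2.24 (adjusted p = 0.101). In AB1 tumors Alox15 ranged from 0.974 to 11.6 CPM in IPL (median 3.21) and from 2.83 to 15.7 CPM in SC tumors (median 7.81), with 7 of 8 IPL tumors below the SC median (log2 fold change -1.17 ± 0.48, adjusted p = 0.0899).

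**Figure D2:**
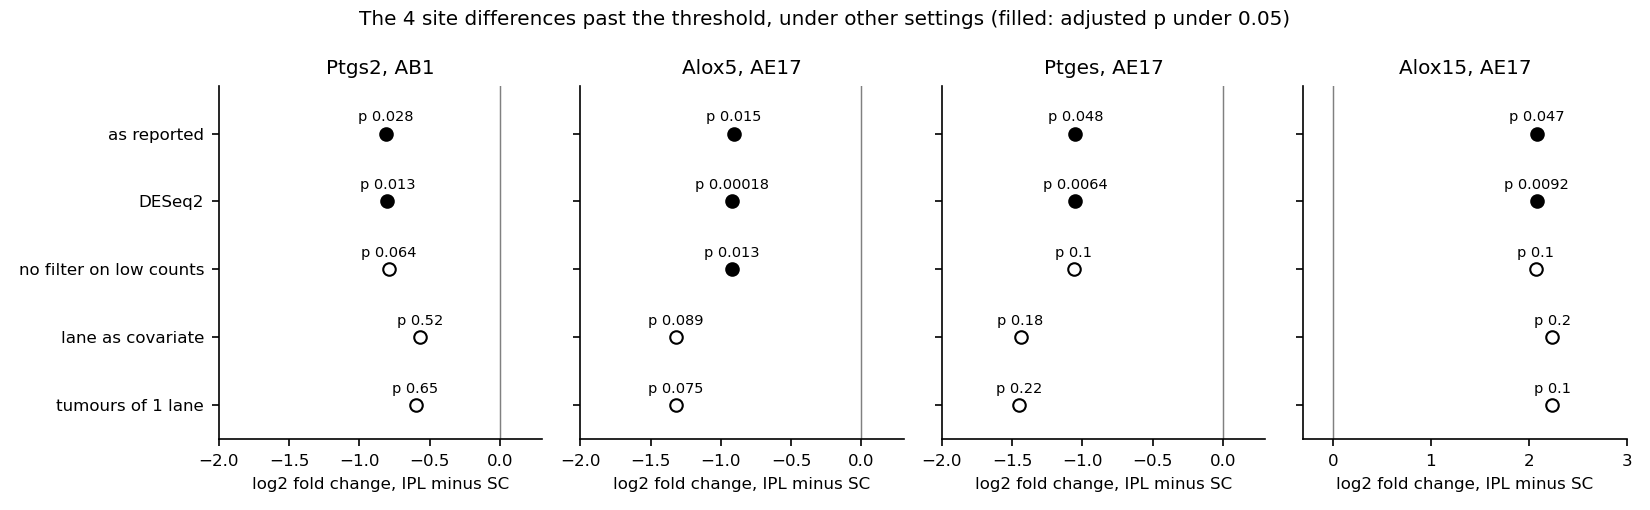
Log2 fold change (IPL minus SC) of the 4 site differences with an adjusted p under 0.05, as reported and under 4 other settings, with the adjusted p beside each point and filled points where it is under 0.05. Directions are the same under every setting, and with lane as a covariate or within 1 lane no point is filled.

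In AE17 the markers called lower in IPL tumors were the mast cell gene Ms4a2, the eosinophil gene Ccr3 and the platelet gene Itga2b, and those called higher were Icam2, Cd79a, Tie1 and Tnnt2. The summed mast cell level was 9.96 to 86.5 CPM in IPL and 47.9 to 208 CPM in SC tumors (1 of 4 markers called, median log2 fold change -1.23), and that of platelet markers 29.6 to 58.5 against 45.5 to 81.2 CPM (1 of 3 called). The summed eosinophil level was 1.59 to 6.94 against 2.04 to 5.27 CPM (1 of 2 called). The part of these cells in the lower Alox5 and Ptges of AE17 IPL tumors was not tested. The summed leukocyte level was 850 to 1340 CPM in IPL and 569 to 1410 CPM in SC tumors with 0 of 5 markers called, and macrophage markers had 2550 to 3000 against 1920 to 3190 CPM with 0 of 7 called. Among the serous cavity macrophage markers 1 of 4 was called (Icam2, higher in IPL tumors), with a sum of 8.90 to 32.3 against 8.48 to 20.1 CPM. The mesothelial markers were mostly too low to test, with 1 of 5 passing the filter and 0 called. Upk3b had a median of 1.86 CPM in AE17 IPL tumors and at most 0.0602 CPM in AE17 SC tumors. IPL replicate 1, in which Alox15 had 0 counts, had 0 counts for Upk3b, Wt1 and Lrrn4 too. The part of mesothelial cells and cavity macrophages in the higher Alox15 of AE17 IPL tumors was not tested.

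Within groups, Alox15 followed the summed mesothelial markers. After the mean of each group was removed, Pearson's r over the 32 tumors was 0.69 (p = 1e-05, the smallest that 100000 permutations within groups can give, adjusted p = 0.00102) and Spearman's rho was 0.73 (p = 2e-05, adjusted p = 0.00306), over 153 relations of 9 genes with 17 marker lists, of which 6 passed by both measures. Pearson's r was 0.60 without the 2 tumors farthest from the median of Alox15 and 0.68 with group-by-lane means removed. Within the groups rho was 0.52 in AB1 IPL, 0.71 in AB1 SC, 0.76 in AE17 IPL and 0.88 in AE17 SC tumors. In SC tumors the sum was mostly a single gene, with Wt1 at a median of 85.6% of it in AB1 SC and Krt19 at a median of 87% in AE17 SC tumors, so that those values describe that gene and not the set. In IPL tumors the leading gene had a median of 41.1% in AB1 (Wt1) and 36% in AE17 (Krt19). Alox5ap followed the mesothelial markers (r = 0.74, but 0.49 without the 2 farthest tumors), the leukocyte markers (r = 0.64 and 0.59, though rho was -0.52 within AE17 IPL tumors) and the macrophage markers (r = 0.78, permutation p = 2e-05, adjusted p = 0.00102, and rho = 0.68, p = 0.00014, adjusted p = 0.00714), with r = 0.63 without the 2 farthest tumors. Ptgs1 followed the macrophage markers as well (r = 0.71, permutation p = 2e-05, adjusted p = 0.00102, and rho = 0.64, p = 0.00012, adjusted p = 0.00714), though within AE17 IPL tumors rho was -0.19. Ptgis followed the fibroblast markers (r = 0.68, permutation p = 0.00035, adjusted p = 0.0105, and rho = 0.65, p = 0.00091, adjusted p = 0.0174), with r = 0.64 without the 2 farthest tumors.

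**Figure D3:**
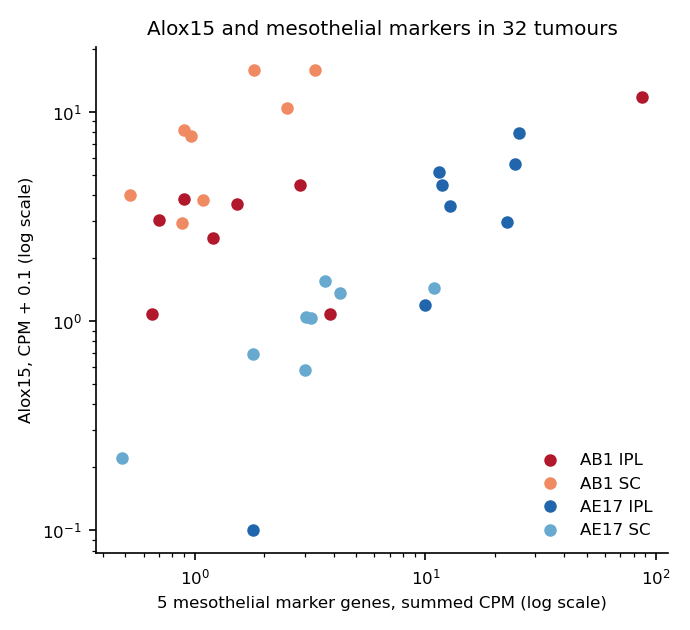
Alox15 (CPM + 0.1, log scale) against the summed CPM of 5 mesothelial marker genes (log scale) in the 32 tumors, colored by group. Spearman's rho within groups was between 0.52 and 0.88, with the sum mostly Wt1 in AB1 SC and Krt19 in AE17 SC tumors, and the AE17 IPL tumor with 0 Alox15 counts has the lowest marker sum of its group, 1.78 CPM.

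Whether the site differences differed between models was tested as an interaction in 1 fit of all 32 tumors. Of the 9 genes 2 were called (Alox15 and Ptgs2), where 20.5% of all 15681 genes were called. The AB1 difference minus the AE17 difference was -3.22 ± 0.78 on the log2 scale for Alox15 (adjusted p = 0.00419) and -1.02 ± 0.30 for Ptgs2 (adjusted p = 0.0142). Both calls held in all 32 fits that left out 1 tumor (adjusted p at most 0.00845 and 0.0259). With lane as a covariate the estimates were -3.28 (adjusted p = 0.108) and -0.77 (adjusted p = 0.385). Ptges (0.90 ± 0.33, adjusted p = 0.0519) and Hpgd (1.68 ± 0.62, adjusted p = 0.0536) lay just outside the threshold, and both were called by DESeq2 (adjusted p = 0.0356 and 0.0381).

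**Figure D4:**
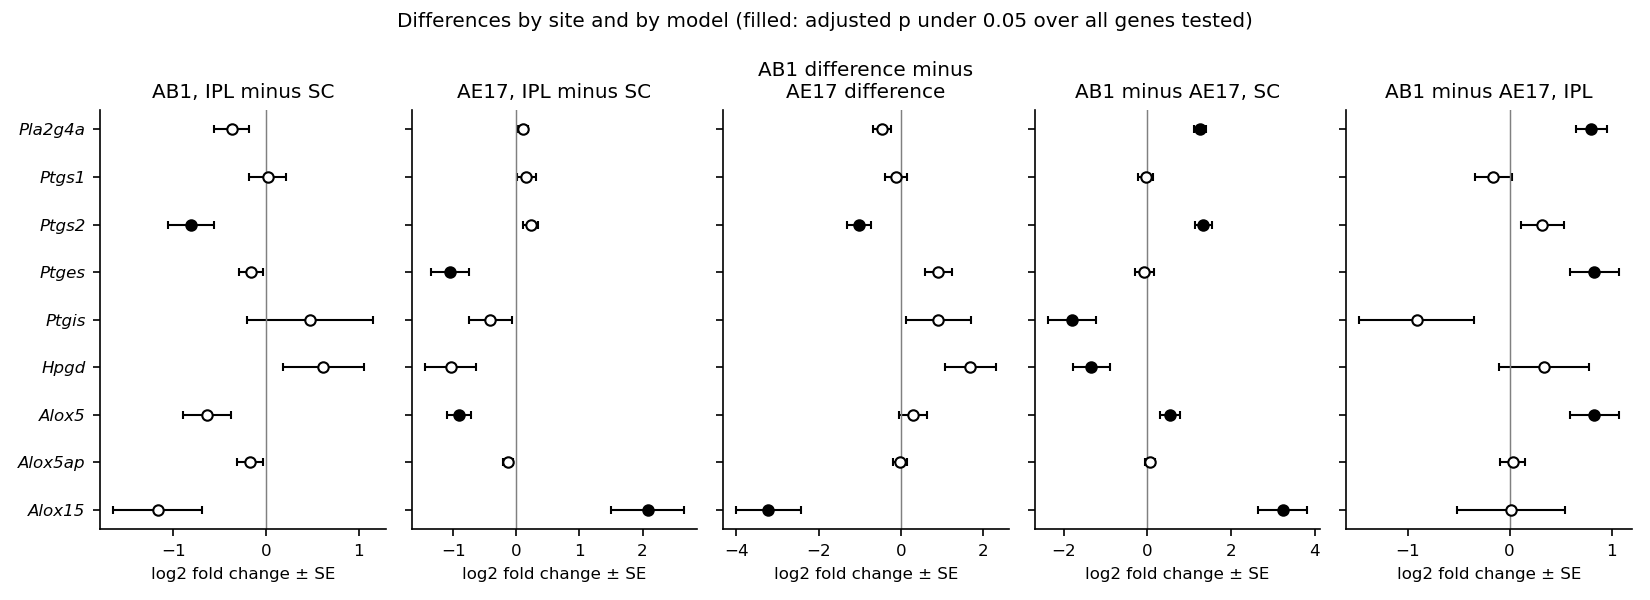
Log2 fold change with its SE for the 9 genes that passed the filter, in the 2 site comparisons, their difference (interaction) and the 2 model comparisons. Filled points have an adjusted p under 0.05 over all genes tested, which holds for 1, 3, 2, 6 and 3 genes from left to right.

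Between models, 6 of the 9 genes were called in SC tumors, where 58.3% of all genes were called, and 3 of 9 in IPL tumors, where 63.4% of all genes were called. In SC tumors AB1 had more Alox15 (log2 fold change 3.24 ± 0.59, adjusted p = 1.92e-05), Ptgs2 (1.34 ± 0.21, adjusted p = 2.27e-06) and Pla2g4a (1.26 ± 0.15, adjusted p = 2.34e-08), and for each of these the 8 AB1 tumors lay above the 8 AE17 tumors. The share of all genes without overlap was not counted, either between models or between sites. Alox5 was higher in AB1 SC tumors too (0.54 ± 0.23, adjusted p = 0.0491), while Ptgis (-1.80 ± 0.58, adjusted p = 0.0081) and Hpgd (-1.34 ± 0.44, adjusted p = 0.0104) were lower. In IPL tumors AB1 had more Pla2g4a (0.80 ± 0.15, adjusted p = 3.62e-05), Alox5 (0.83 ± 0.24, adjusted p = 0.00321) and Ptges (0.83 ± 0.24, adjusted p = 0.00294). Ptgis was not called there (-0.91 ± 0.56, adjusted p = 0.160), but without AB1 IPL replicate 2 it was lower in AB1 (-2.53, adjusted p = 5.79e-07). The call of Alox5 in SC tumors held in 11 of 32 fits that left out 1 tumor. Lanes were not shared between the SC tumors of the models or between their IPL tumors. With lane as a covariate Pla2g4a (1.29, adjusted p = 0.000632), Ptgs2 (1.40, adjusted p = 0.00505) and Alox15 (3.56, adjusted p = 0.00594) stayed past the threshold in SC tumors, and only Pla2g4a (0.96, adjusted p = 0.0204) in IPL tumors.

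Ordered by their means, Pla2g4a was highest in AB1 SC tumors, then AB1 IPL, AE17 IPL and AE17 SC tumors, and in this order only AB1 IPL and AE17 IPL were neighbors that differed. Ptgs2 had the same order, and only AB1 SC and AB1 IPL tumors were neighbors that differed. Alox15 had it too, and only AE17 IPL and AE17 SC tumors were neighbors that differed. For Alox5 the order was AB1 SC, AE17 SC, AB1 IPL and AE17 IPL, and the middle pair did not differ detectably (adjusted p = 0.765). For Ptges, AE17 IPL tumors were last and differed from AB1 IPL tumors above them, while the 3 groups above were not separated. No neighbors differed detectably for Ptgs1, Ptgis, Hpgd or Alox5ap.

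Some of the genes varied together within groups. How many of all gene pairs would pass the same tests was not measured, nor how many of all genes would follow the marker lists. The pairs below are therefore not shown to be unusual. With group means removed, 7 of 36 pairs, all positive, had an adjusted permutation p under 0.05 by both Pearson's r and Spearman's rho, and 17 of the 36 had a negative rho. The lowest were those of Ptgs2 with Ptgis (-0.46, adjusted permutation p = 0.0543) and with Hpgd (-0.45, adjusted permutation p = 0.0489), and by Pearson's r neither passed (adjusted permutation p = 0.287 and 0.256). Pla2g4a and Ptgs2 had Pearson's r = 0.80 (permutation p = 1e-05, adjusted p = 0.00036) and Spearman's rho = 0.62 (p = 0.00027, adjusted p = 0.00324), and r was 0.61 without the 2 tumors farthest from the median of Ptgs2 and 0.80 with group-by-lane means removed. The relation held in AB1 (rho = 0.86 in IPL and 0.93 in SC tumors) and was weak in AE17 (0.10 in IPL and 0.45 in SC tumors), a difference that was not tested. AB1 IPL replicate 4 had the lowest level of both genes in its group, at 6.78 CPM of Ptgs2 and 17.1 CPM of Pla2g4a. Alox5ap and Alox15 had r = 0.55 (permutation p = 3e-05, adjusted p = 0.00054) and rho = 0.68 (p = 4e-05, adjusted p = 0.00144), with r = 0.55 without the 2 farthest tumors. Ptgs1 and Alox5ap had r = 0.68 (permutation p = 5e-05, adjusted p = 0.0006) and rho = 0.66 (p = 0.00011, adjusted p = 0.00198), with r = 0.54 without the 2 farthest tumors, though rho was 0.12 within AE17 IPL tumors. Alox5 and its partner Alox5ap had r = 0.68 (permutation p = 0.00028, adjusted p = 0.00252) and rho = 0.55 (p = 0.0020, adjusted p = 0.0144), with r = 0.51 without the 2 farthest tumors and rho = -0.12 within AE17 SC tumors. The other 3 pairs joined Ptgis to Alox5ap, Alox5 and Ptgs1, and their r was 0.43, 0.34 and 0.25 without the 2 farthest tumors, against 0.70, 0.65 and 0.53 with them. In the same order their rho was -0.33, -0.36 and 0.17 within AE17 IPL and 0.14, 0.62 and -0.21 within AE17 SC tumors. Within the AB1 groups it was 0.69 to 0.95.

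**Figure D5:**
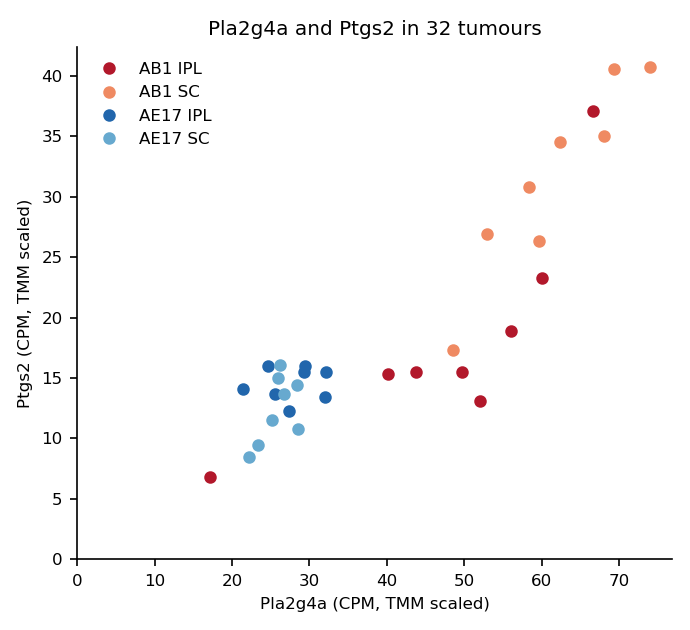
Ptgs2 against Pla2g4a (TMM-scaled CPM) in the 32 tumors, colored by group. AB1 tumors run along a rising line from 6.78 to 40.7 CPM of Ptgs2, and AE17 tumors lie together between 8.42 and 16.1 CPM of Ptgs2.

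For each gene, the 3 genes with the most similar pattern were found by Spearman's rho over the 32 tumors with group means removed, among 13921 genes. The tumors share lanes and tissue makeup, so these values describe likeness only. Those of Ptgs2 were Btc, an epidermal growth factor family ligand (rho = 0.86), Aida (0.77) and Msr1, a macrophage scavenger receptor (0.75). Each was above the rho of Ptgs2 with Pla2g4a (0.62). Those of Alox15 were the chemokine gene Ccl6 (0.80), the ficolin gene Fcna (0.75) and Wt1, a transcription factor of mesothelium (0.75). Alox5ap was most like Gm2a, a lysosomal glycolipid-binding protein gene (0.83), Aldh1b1 (0.82) and Srd5a3 (0.81), and Ptgs1 most like Tnfsf12, a TNF family ligand (0.85), Tmem9b (0.83) and Rgs3 (0.82). Pla2g4a was most like Eif2ak2, the double-stranded RNA kinase (0.82), Rrm2b (0.81) and Vps54 (0.80). For Ptges these were Trmt112 (0.77), Mrpl51 (0.75) and Gm14017 (0.73), and for Alox5 they were Vsig10l (0.78), the ion channel gene Trpv4 (0.74) and 1810062G17Rik (0.74). For Ptgis they were Rab13 (0.83), Cyb5a (0.79) and 1810058I24Rik (0.78), and for Hpgd they were Sox12 (0.74), the integrin gene Itga8 (0.73) and Fmo1 (0.73).

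The rest of the pathway was read from 77 other genes of arachidonic acid handling, prostanoids and leukotrienes, of which 67 were in the table. In AB1, 13 of the 47 that were tested were called (27.7%), with 12 lower and 1 higher in IPL tumors. In AE17, 4 of 45 were called (8.89%), with 2 lower and 2 higher. These shares stand beside 23% and 5.73% of all genes tested. Over all genes the calls were 1571 lower and 1803 higher in AB1, and 459 lower and 381 higher in AE17. Leukocyte (4 of 5), T cell (5 of 5) and macrophage (3 of 7) markers fell in the same AB1 IPL tumors, and their part in the lower pathway genes was not tested. Of the genes that make arachidonate or return it to membranes, 2 of 7 were lower in AB1 IPL tumors and 0 of 7 were called in AE17, and in the P450 and epoxide hydrolase branch 0 of 3 and 0 of 2 were called.

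Of the genes that release or clear arachidonate and related lipids, 4 of 11 tested in AB1 and 2 of 9 in AE17 were called, Pla2g4a included among those tested. Pla2g7, which encodes the platelet-activating factor hydrolase of macrophages, had 60.0 ± 8.96 CPM in AB1 IPL and 119 ± 29.5 CPM in AB1 SC tumors, and all 8 IPL tumors lay below every SC tumor (log2 fold change -1.01 ± 0.14, adjusted p = 9.3e-05). Faah, the fatty acid amide hydrolase, fell without overlap in AB1 as well (-0.85 ± 0.12, adjusted p = 9.96e-05), and the secreted phospholipase gene Pla2g2d was at -1.61 ± 0.54 (adjusted p = 0.0380). Pla2g6, a calcium-independent phospholipase A2, was the only pathway gene called in both models, and all 8 IPL tumors lay above every SC tumor in each (0.39 ± 0.08, adjusted p = 0.00144 in AB1, and 0.41 ± 0.09, adjusted p = 0.0165 in AE17). Pla2g4c rose in AE17 IPL tumors, again without overlap (0.82 ± 0.19, adjusted p = 0.0229). Within the lane that held both sites these log2 fold changes were -0.99 for Pla2g7, -0.94 for Faah and -2.07 for Pla2g2d in AB1, 0.20 (AB1) and 0.32 (AE17) for Pla2g6, and 0.81 for Pla2g4c in AE17. With lane as a covariate the calls of Pla2g6 (adjusted p = 0.306 in AB1 and 0.217 in AE17), Pla2g2d (0.176) and Pla2g4c (0.191) were lost.

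Of the prostanoid synthases, 2 of 10 were called in AB1 (Tbxas1 and Ptgs2) and 1 of 10 in AE17 (Ptges). Of the prostanoid receptors, 2 of 6 were called in AB1 and 1 of 6 in AE17, and of the genes of prostanoid breakdown and transport 1 of 6 in AB1 and 0 of 6 in AE17. All of these calls were lower in IPL tumors. Tbxas1, the thromboxane synthase, had 37.1 ± 7.74 CPM in AB1 IPL and 72.2 ± 17 CPM in AB1 SC tumors (log2 fold change -0.97 ± 0.15, adjusted p = 0.000214), with 7 of 8 IPL tumors below every SC tumor. Ptger2, a prostaglandin E2 receptor, had 1.98 ± 0.543 against 4.80 ± 1.09 CPM, with no overlap (-1.28 ± 0.19, adjusted p = 0.000147). Akr1c14 was at -0.99 ± 0.26 in AB1 (adjusted p = 0.0097) and, uncalled, at -1.10 ± 0.32 in AE17 (adjusted p = 0.0541). The prostacyclin receptor gene Ptgir fell in AE17 (-0.90 ± 0.26, adjusted p = 0.0488). With lane as a covariate Tbxas1 (adjusted p = 0.0453), Ptger2 (0.0414), Pla2g7 (0.0265) and Faah (0.0140) stayed past the threshold in AB1, and Akr1c14 (0.393) and Ptgir (0.382) did not.

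Of the lipoxygenases and genes of leukotriene synthesis, 1 of 10 was called in AB1 and 3 of 11 in AE17 (Alox5, Alox15 and Dpep1), and of the leukotriene and lipoxin receptors 2 of 3 in AB1 and 0 of 3 in AE17. Ltb4r1, a leukotriene B4 receptor, had 4.02 ± 1.77 CPM in AB1 IPL and 9.73 ± 2.53 CPM in AB1 SC tumors (log2 fold change -1.29 ± 0.25, adjusted p = 0.00133), with 6 of 8 IPL tumors below every SC tumor. Cysltr1, a cysteinyl leukotriene receptor, was at -0.77 ± 0.20 in AB1 (adjusted p = 0.00997), and all 8 IPL tumors lay below every SC tumor. Cyp4f18, which inactivates leukotriene B4, was at -1.07 ± 0.26 in AB1 (adjusted p = 0.00645). Dpep1, a dipeptidase that converts leukotriene D4, fell in AE17 (-1.47 ± 0.40, adjusted p = 0.0410), where 7 of 8 IPL tumors lay below every SC tumor. None of these stayed past the threshold with lane as a covariate (adjusted p = 0.0805 for Ltb4r1, 0.393 for Cysltr1, 0.111 for Cyp4f18 and 0.204 for Dpep1).

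In the interaction test 18 of 51 other pathway genes were called (35.3%, beside 20.5% of all genes), of which 10 had a lower and 8 a higher site difference in AB1 than in AE17. Of the genes named above, the difference was lower in AB1 for Pla2g2d (-3.94, adjusted p = 0.0154), Cyp4f18 (-1.61, adjusted p = 0.00123), Pla2g4c (-1.32, adjusted p = 0.00355), Tbxas1 (-1.20, adjusted p = 0.000507), Ltb4r1 (-1.19, adjusted p = 0.0132), Ptger2 (-1.18, adjusted p = 0.0121), Pla2g7 (adjusted p = 0.000369) and Cysltr1 (-0.92, adjusted p = 0.00749). It was higher in AB1 for Dpep1 (1.85, adjusted p = 0.0260). Pla2g2d did not pass the filter between AE17 sites. Its level was 2.68 ± 5.30 CPM (0 to 15.1) in AE17 IPL and 0.522 ± 0.374 CPM in AE17 SC tumors. Of the AE17 IPL tumors 2 lay above and 2 below every SC tumor. Interaction values with lane as a covariate are not given for these genes. Over all genes, lane took the interaction calls from 3212 to 117.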

How the data were processed

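Whole tumors of 32 mice were analysed, 8 in each group. The values deposited by the authors are counts of reads per gene without normalization, mapped with HISAT2 2.0.4 and counted with SummerizeOverlaps, after bcl2fastq 1.8.4 and FastQC, per the labels. Whether counting used strand and which annotation it used are not given in the sources used here. Gene identifiers of 39495 of 39676 genes matched GENCODE M21 on GRCm38 without their version. No 2 tumors of a group had counts that differed by sampling noise alone. The groups came from the sample titles and the lanes from the column names.

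Counts were filtered (filterByExpr), scaled (TMM) and tested in R 4.3.3 with edgeR 4.0.16 by robust quasi-likelihood F tests, two-sided, with Benjamini-Hochberg adjustment over all genes tested. Site comparisons used the 16 tumors of a model, and the interaction and model comparisons all 32. Ptgds, removed by the filter, was tested by an exact permutation test of log2 CPM (prior count 2) over 12870 splits. Relations used group-centred log2 CPM and 100000 permutations. Alternatives were DESeq2 1.42.0, other size factors, other filters, the replicate number as a block, lane as a covariate, tumors of 1 lane, 1 fit of all tumors, a threshold of 0.01 and leaving out each tumor. Leaving out AB1 IPL replicates 2 and 4 together was added after seeing the data. The detection limit of 3 counts covers counting error only, since reads carry no molecular identifiers. Promoters came from RefSeq, and tables and plots were made with Python 3.11.15, pandas 2.3.3, numpy 2.4.6, scipy 1.17.1 and matplotlib 3.10.9. Procedures were tested on simulated data.

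The 10 genes, the pathway lists and the marker lists were chosen with earlier results of these data known. Named are all 10 genes, the 3 genes most like each, and, of the other pathway genes with an adjusted p under 0.05 in a site comparison, the 12 with the largest log2 fold change and any called in both models. Of 87 pathway genes, 10 have no entry in the table and are not analysed here.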

Additional observations from a re-analysis of the deposited data

Results flagged for a closer look

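Single tumors stood apart from their group in 10 of 40 sets of 8 values (10 genes in 4 groups), judged by the gap between the extreme tumor and its neighbor as a share of the range of the group. A chance rate of about 1 in 20 would apply only to independent, normally distributed values. The sets here share tumors and hold CPM values, so their chance rate is not known. AB1 IPL replicate 2 accounted for 5 of them, with 54.8 CPM of Ptgs1 (next highest 36.6), 42.0 CPM of Ptgis (4.17), 22.1 CPM of Alox5 (10.5), 107.0 CPM of Alox5ap (69.5) and 11.6 CPM of Alox15 (4.38). AE17 SC replicate 6 had 49.0 CPM of Ptgis (19.5) and 15 CPM of Alox5 (10.8). AE17 IPL replicate 1 had 87.5 CPM of Ptges (42.7). For Ptgds, AB1 SC replicate 3 at 0.177 CPM (0.0582) and AE17 IPL replicate 2 at 0.296 CPM (0.0603) rest on at most 5 counts.

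The site difference differed between models for 2 genes by the interaction test of edgeR. The AB1 difference minus the AE17 difference was -1.02 on the log2 scale for Ptgs2 (adjusted p = 0.0142) and -3.22 for Alox15 (adjusted p = 0.00419). Neither call held with lane as a covariate.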

How the results depend on the processing

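Of the 9 genes tested, the number called between AB1 sites (1) was 0 without a filter, with lane as a covariate, within 1 lane or at an adjusted p under 0.01, 2 with DESeq2 or 1 fit of all 32 tumors, 4 without AB1 IPL replicates 2 and 4, and 0 to 4 when each tumor was left out. Between AE17 sites (3) it was 1 without a filter, 0 with lane as a covariate, within 1 lane or at 0.01, and 1 to 3 when each tumor was left out. For the interaction (2) it was 0 with lane, 4 with DESeq2, 1 at 0.01 and 2 to 4. Between models in SC tumors (6 as reported) it was 3 with lane and 5 to 6 when each tumor was left out. With at least 10 counts in every tumor it was 3 of the 7 genes still tested there, since Alox15 and Hpgd were removed by that filter. In IPL tumors (3 as reported) it was 1 with lane, 6 without the 2 tumors and 3 to 4 when each tumor was left out. Over all genes, lane as a covariate took the calls from 3374 to 386 (AB1 sites), 840 to 1 (AE17 sites), 3212 to 117 (interaction), 9138 to 5268 (SC) and 9940 to 5008 (IPL). Within 1 lane they were 169 and 14 between sites. For AB1 sites they were 3805 without a filter, 4463 of 21550 tested with DESeq2 (20.7%), 4296 with 1 fit of all tumors (27.4%), 3757 without the 2 tumors (25.4%), and 2877 to 3652 (19.4% to 24.7%) when each tumor was left out. For AE17 sites they were 550 without a filter, 1774 with DESeq2, 1324 with 1 fit of all tumors, and 316 to 2066 when each tumor was left out. For the interaction they were 3627 with DESeq2 (19.1%) and 2722 to 3664 when each tumor was left out (17.2% to 23.2%). Between models they were 59.3% of genes in SC tumors with at least 10 counts and 56.1% to 61.1% when each tumor was left out, and in IPL tumors 64.6% without the 2 tumors and 61.3% to 63.9%. At 0.01 they were 1903 (AB1 sites), 75 (AE17 sites) and 1513 (interaction). Apart from the stated construction of each setting (fewer tumors or genes), the cause was not tested.

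Only differences that were not called as reported changed sign, apart from Alox5 between models in SC tumors (-0.02 with lane). Without AB1 IPL replicates 2 and 4 these were Ptgis (-1.32) and Ptgs1 (-0.25) between AB1 sites, Ptgis (-0.86) and Alox5 (-0.03) in the interaction, and Alox15 (-0.57) and Alox5ap (-0.16) between models in IPL tumors. Ptgis between AB1 sites was -1.04 with DESeq2, Ptgs1 there -0.02 within 1 lane, Ptgs1 between models in SC tumors 0.02 with total counts, and Alox5ap in the interaction 0.0 with lane. Leaving out each tumor gave ranges across 0 for Ptgis (-1.14 to 0.63) and Ptgs1 (-0.13 to 0.17) between AB1 sites; for Ptgis (-0.73 to 1.07), Alox5 (-0.01 to 0.39), Ptgs1 (-0.29 to 0.01) and Alox5ap (-0.18 to 0.04) in the interaction; for Ptgs1 (-0.17 to 0.03) and Ptges (-0.19 to 0.12) between models in SC tumors; and for Alox15 (-0.48 to 0.25), Hpgd (-0.08 to 0.67) and Alox5ap (-0.12 to 0.10) in IPL tumors. Another scaling moved the median log2 fold change of all genes by at most 0.0632.

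With the replicate number as a block, 1 gene was called between AB1 sites, 2 between AE17 sites (Alox5 and Hpgd, and neither Ptges nor Alox15), 2 in the interaction, 6 between models in SC tumors and 4 in IPL tumors, where 15.5%, 4.51%, 15.3%, 57% and 61.9% of all genes were called. Under the block Ptgis was -0.80 between AB1 sites and -0.53 in the interaction, Ptges 0.01 between models in SC tumors and Alox15 -0.1 in IPL tumors. The numbers were not taken to pair the tumors, since that was to need a correlation over 0.1 in every same-numbered pair. In AB1 0 of 8 pairs were over 0.1 (-0.287 to -0.003) and in AE17 5 of 8 (-0.227 to 0.271, mean 0.072), and 0 and 3 of 8 IPL tumors correlated best with their own number.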
